A study of Homo sapiens with 12 samples.

Results

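The genes described here build and feed the DNA replication machinery: the MCM helicase and its partners, the origin licensing and firing factors, the replicative polymerases with their sliding clamp and clamp loader, the enzymes that supply deoxynucleotides, the chromatin assembly factors that follow the fork, and 3 E2F transcription factors. The list held 49 gene names of shared function and was chosen with earlier results of these data known. Shares of the list set beside those of all genes are therefore descriptions, and the list as a whole was given no p-value. Of these, 48 were matched by Ensembl identifier among the 57773 genes in the count tables, and the expression of UHRF1 was not analysed here. The cells were WI-38 fibroblasts, a human diploid line from fetal lung, sequenced as bulk poly(A) RNA in 12 libraries from 4 groups of 3. Proliferating cells carried a non-targeting control siRNA (siCtrl) and spent 8 days in DMSO, the solvent. Senescent cells carried siCtrl, siNTRK2 or siBDNF and spent 8 days in 50 µM etoposide, a topoisomerase II poison that breaks DNA. All 4 groups were transfected with 25 nM siRNA, so siRNA delivery was common to every library, and the drug was added on the day after transfection. NTRK2 encodes TrkB, the receptor for the neurotrophin BDNF.

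A replication origin is licensed in G1, when the origin recognition complex (ORC), CDC6 and CDT1 load the MCM2-7 ring onto DNA. In S phase the kinase CDC7 with its activator DBF4 helps convert the ring into an active helicase by joining it to CDC45 and the GINS complex, after which primase and the polymerases copy both strands and PCNA, loaded by the RFC complex, clamps the polymerases to DNA. Many of these genes are classical targets of E2F factors, which the retinoblastoma protein holds inactive in cells that have left the cycle, and senescence is a durable form of that exit.

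The silenced genes were read first. NTRK2 had counts of 7, 15 and 10 in the senescent siCtrl libraries, 10, 23 and 29 with siBDNF and 0 in each of the 3 siNTRK2 libraries. In proliferating cells its counts were 11, 1 and 1, so counts of this transcript were few in every library. BDNF stood at 161, 157 and 169 CPM (counts scaled to the library's total and edgeR's TMM factor) in senescent siCtrl cells and at 48.1, 48.9 and 44.3 with siBDNF, 3.45-fold lower. With siNTRK2 its level was 205, 206 and 203 CPM. Each silenced gene was thus low in the libraries labelled for it.

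The libraries held 31567912 to 72328151 counts assigned to genes. The replication genes took 0.119 to 0.122% of the counts in proliferating cells, 0.0557 to 0.0570% in senescent siCtrl cells, 0.0593 to 0.0614% with siNTRK2 and 0.0589 to 0.0595% with siBDNF. All 6 fibroblast markers looked at were expressed, COL1A1 at 14374, 13751 and 15056 CPM in proliferating cells. The summed level of 4 markers of epithelial, endothelial and blood cells (EPCAM, CDH1, CDH5 and PTPRC) was 0.233 to 0.342 CPM in proliferating cells, 1.81 to 2.14 CPM in senescent siCtrl cells, 1.30 to 1.69 CPM with siNTRK2 and 2.26 to 2.59 CPM with siBDNF. PTPRC and CDH5 were at 0 counts in proliferating cells. This sum was higher in every senescent library than in any proliferating one, and its part in the results below was not tested. CDKN1A, which encodes the cyclin-dependent kinase inhibitor p21, was 3.07-fold higher in senescent cells, and the proliferation marker MKI67 was 12.8-fold lower. Libraries of 1 group are labelled as replicates. The study describes its cell experiments in general as independent repeats in which all groups were handled together, and which libraries shared a repeat is not given in the sources used here.

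Nearly the whole machinery was lower in senescent cells. Of the 48 genes, 46 (95.8%) fell between proliferating and senescent siCtrl cells, against 28.3% of all 21518 genes tested (edgeR quasi-likelihood test, adjusted p under 0.05 with Benjamini-Hochberg adjustment over all genes tested, which is what "rose" and "fell" mean throughout). ORC3 rose, as did 29.8% of all genes tested, and PCNA did not pass the test. A fall of more than 1 on the log2 scale, the size the study also asked for, was seen in 30 of the 48 (62.5%), against 5.16% of all genes. The median log2 fold change was -1.54 over the 48 genes and 0.02 over all genes tested. In each of the 48 the 3 proliferating and the 3 senescent siCtrl libraries did not overlap, 46 being lower and 2 higher in senescent cells. The same held for 6419 lower and 6781 higher genes among all 21518 tested. These counts of lower genes include E2F2 and E2F8, which passed the filter on low counts through the proliferating libraries, where they were highest. With at least 10 counts in every library, 46 of the 48 genes were left, of which 44 fell and 2 rose. In that fit 10616 of 17028 genes were called in either direction. In bulk RNA, fewer cells in S phase and less of the replication gene mRNAs per cell cannot be told apart.

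**Figure D1:**
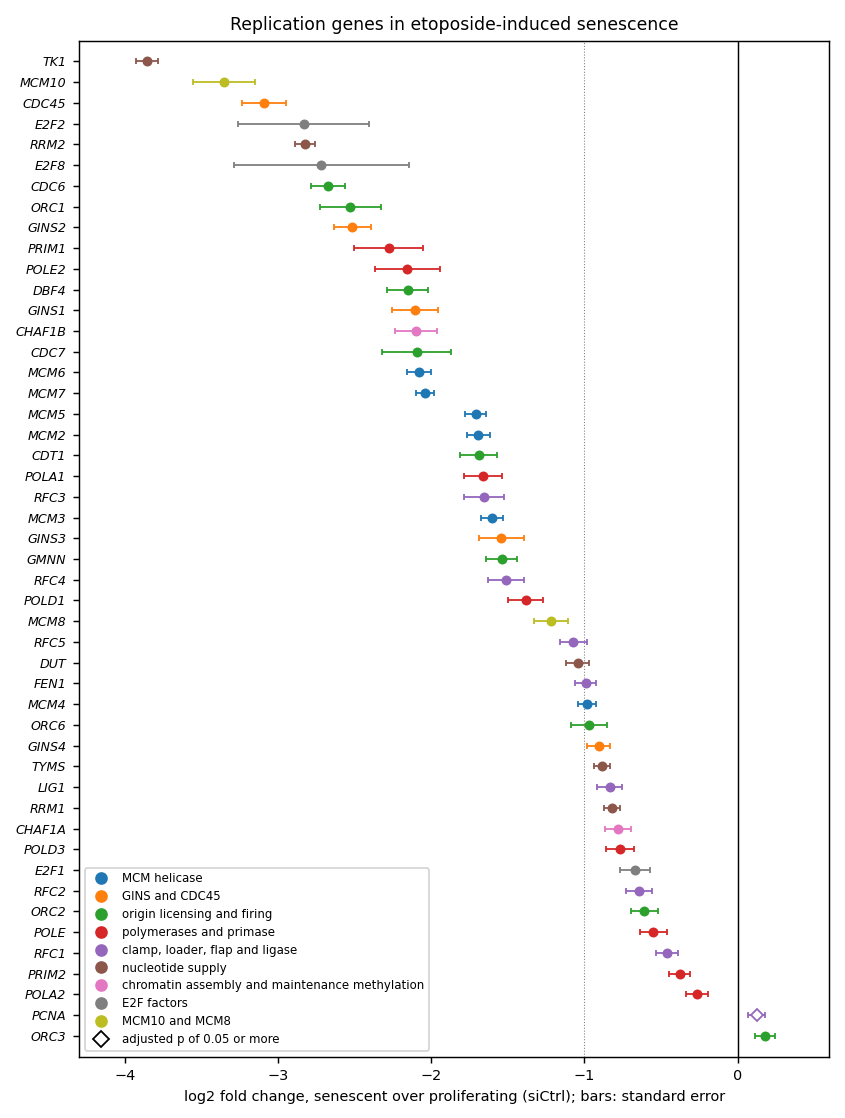
Log2 fold change of each of the 48 genes, senescent over proliferating siCtrl cells (3 libraries each), with the standard error from the edgeR fit; colours give the role and the open diamond marks the gene with an adjusted p of 0.05 or more. Points run from -3.85 for TK1 to 0.18 for ORC3, and 46 lie left of 0; the dotted line marks -1.

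All 6 subunits of the MCM2-7 ring fell. MCM6 had the largest fall among them, with 47, 45 and 43.1 CPM in proliferating cells and 9.87, 10.8 and 11.3 CPM in senescent siCtrl cells, a log2 fold change of -2.08 ± 0.08 (SE, n = 3 per group, adjusted p = 1.99e-17). MCM4 had the smallest, from 53.1, 52.5 and 50.5 CPM to 28.6, 25.4 and 25 CPM, or 1.98-fold. The folds in this ring, which works with 1 copy of each subunit, thus ran from 1.98 for MCM4 to 4.23 for MCM6. Differences in fold between genes were not tested, here or for the other complexes. MCM7 (ENSG00000166508, chr7:99689856-99699563, minus strand in hg19) fell 4.12-fold. It shares 7.90% of its exonic bases with AP4M1 on the opposite strand, and whether the authors' counting used strand is not given in the sources used here.

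The partners that complete the active helicase fell as well. CDC45 stood at 9.37, 9.0 and 9.42 CPM in proliferating cells and at 1.21, 1.15 and 0.883 CPM in senescent siCtrl cells, 8.54-fold lower (log2 fold change -3.09 ± 0.14, SE, adjusted p = 2.01e-15). Of the GINS subunits, GINS2 fell 5.72-fold, GINS1 4.3-fold and GINS3 2.91-fold. GINS4 fell least, from 16.2, 15.9 and 15.9 CPM to 8.32, 8.77 and 8.52 CPM. The folds of the 4 GINS subunits thus ran from 1.87 to 5.72. MCM10, which helps activate the loaded helicase, had the second largest fall of the 48 genes, from 7.95, 8.09 and 7.12 CPM to 0.499, 0.861 and 0.90 CPM (10.2-fold, adjusted p = 2.42e-13). MCM8, a related helicase subunit of homologous recombination, went from 10.2, 9.87 and 8.58 CPM to 4.06, 4.58 and 3.7 CPM (2.33-fold).

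Among the 9 licensing and firing genes, 8 fell and ORC3 rose. CDC6, the ATPase that recruits the helicase to origins (ENSG00000094804, chr17:38444131-38460909, plus strand), dropped from 19.2, 20.2 and 20.6 CPM to 3.85, 2.81 and 2.75 CPM, a log2 fold change of -2.67 ± 0.11 (SE, adjusted p = 1.50e-16). ORC1, the ORC subunit whose level cycles in human cells, fell 5.77-fold, whereas ORC6 fell 1.96-fold and ORC2 1.52-fold. ORC3 was the exception, at 26.9, 26 and 25.2 CPM in proliferating cells and 29.8, 30.8 and 27.9 CPM in senescent siCtrl cells. Its groups did not overlap, but the rise was small (log2 fold change 0.18 ± 0.06, SE, adjusted p = 0.0178) and lost the call without proliferating replicate 2 or 3 or without senescent siCtrl replicate 1 or 2, with log2 fold changes of 0.13 to 0.17. CDC7 fell 4.28-fold and its activator DBF4 4.45-fold. CDT1, the loading factor, fell 3.23-fold and GMNN, which encodes its inhibitor geminin, 2.91-fold.

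All 8 polymerase and primase genes fell. PRIM1, the catalytic subunit of primase, went from 3.79, 3.93 and 3.54 CPM to 0.802, 0.896 and 0.623 CPM (4.85-fold, adjusted p = 3.44e-09), while PRIM2, its partner, fell 1.3-fold. POLA2, the accessory subunit of polymerase alpha, had the smallest change of the 8, from 21.4, 21 and 22.4 CPM to 17.5, 17.6 and 18.6 CPM, whereas POLA1, the catalytic subunit, fell 3.17-fold. In polymerase epsilon the accessory gene POLE2 fell 4.45-fold and the catalytic POLE 1.46-fold. In polymerase delta, POLD1 fell 2.61-fold and POLD3 1.7-fold.

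PCNA, the sliding clamp (ENSG00000132646, chr20:5095599-5107272, minus strand), stood apart. Its level was 82.7, 87.4 and 91.9 CPM in proliferating cells and 95.1, 95.4 and 95.3 CPM in senescent siCtrl cells, a log2 fold change of 0.13 ± 0.05 (SE, adjusted p = 0.0518). The senescent libraries lay slightly above every proliferating one, and the adjusted p moved between 0.0113 and 0.317 over the 13 alternatives tried, 7 of which called it higher. The genes that load and follow the clamp did fall, RFC3 most, from 9.8, 8.01 and 7.28 CPM to 2.92, 2.67 and 2.39 CPM (3.15-fold). The other loader subunits fell 2.1-fold (RFC5), 2.85-fold (RFC4), 1.56-fold (RFC2) and 1.38-fold (RFC1, the large subunit). FEN1, the flap endonuclease of Okazaki fragment processing, fell 1.99-fold and LIG1, the ligase that seals them, 1.78-fold. Per kb of exon, PCNA had the highest level of the 48 genes in both states, 62.3 CPM per kb in proliferating and 67.9 CPM per kb in senescent siCtrl cells.

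All 5 nucleotide supply genes fell. TK1, the cytosolic thymidine kinase of the salvage route (ENSG00000167900, chr17:76170172-76183314, minus strand), stood at 78.4, 74.1 and 79.5 CPM in proliferating cells and at 5.36, 5.19 and 5.47 CPM in senescent siCtrl cells. This was the largest fall of the 48 genes, 14.5-fold (log2 fold change -3.85 ± 0.07, SE, adjusted p = 7.66e-23). RRM2, the small subunit of ribonucleotide reductase that is made in S phase (ENSG00000171848, chr2:10260825-10351851, plus strand), went from 88.4, 89.9 and 87.4 CPM to 11.8, 12.4 and 13.3 CPM, or 7.09-fold. The large subunit RRM1 fell 1.76-fold, from 109, 115 and 112 CPM to 62.1, 63.2 and 65.5 CPM. TYMS, which makes thymidylate de novo, fell 1.85-fold and DUT, the dUTPase that keeps uracil out of DNA, 2.06-fold. ENOSF1 on the opposite strand overlaps 39.9% of the exonic bases of TYMS, and DUT-AS1 14.5% of those of DUT, so their counts are uncertain to that extent.

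CHAF1B, a subunit of the chromatin assembly factor CAF-1, went from 10.5, 10.6 and 11.8 CPM to 2.08, 2.45 and 3.1 CPM (4.29-fold), and the large subunit CHAF1A from 13.5, 14.5 and 14.9 CPM to 8.39, 9.01 and 7.53 CPM (1.72-fold). The activator E2F1 fell 1.59-fold, from 10.7, 9.79 and 10.3 CPM to 6.61, 5.84 and 6.92 CPM. E2F2, another activator, was rare in all libraries, with counts of 82, 80 and 38 in proliferating and 13, 10 and 6 in senescent siCtrl cells. Its summed counts gave a ratio of senescent over proliferating of 0.137 (95% exact interval 0.0897 to 0.203, counting error only). E2F8, an E2F repressor, had counts of 76, 87 and 54 and 10, 1 and 24, a ratio of 0.153 (0.104 to 0.219). Both passed the filter on low counts through the proliferating libraries, where they were highest.

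Summed over the 48 genes, the level was 1242 to 1256 CPM in proliferating cells and 565 to 568 CPM in senescent siCtrl cells, 45.2 to 45.4% of the proliferating mean. Without the 5 genes of highest level it was 38.0 to 38.9%. By role, the sum of the MCM ring fell to 30.3 to 32.1% of the proliferating mean and that of GINS with CDC45 to 29.6 to 30.9%. The clamp group kept 76.7 to 77.0%, a sum in which PCNA is the largest term, and the polymerases 60.0 to 62.3%.

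**Figure D2:**
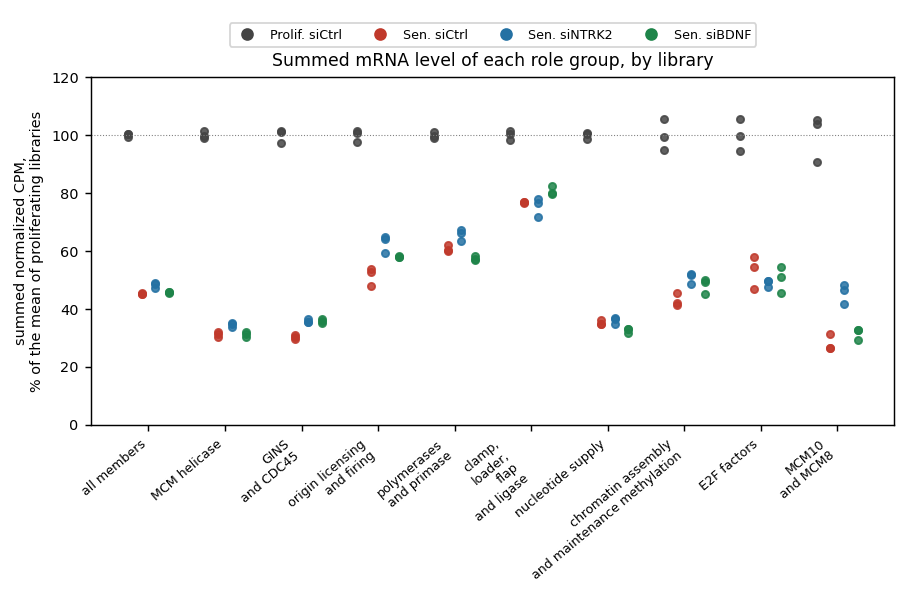
Summed normalized CPM of each role group in each library (points), as a percentage of the mean of the 3 proliferating libraries, which is the dotted line at 100. Senescent libraries lie below every proliferating one in each group; with siNTRK2 the pair MCM10 and MCM8 reaches 41.7 to 48.4% against 26.4 to 31.5% with siCtrl.

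Other genes of the pathway were read from a list of 64 other names. With senescence 51 of the 64 (79.7%) fell, against 28.3% of all genes tested, and 7 (10.9%) rose, against 29.8%. The largest falls were those of TOP2A (log2 fold change -3.22), a target of etoposide, CCNA2 (-3.09), the S phase cyclin A, and CLSPN (-2.60), the checkpoint adaptor claspin. RRM2B, the p53-inducible small subunit of ribonucleotide reductase, rose by 1.19 ± 0.06 on the log2 scale, and E2F7, a repressor of the same family as E2F8, rose by 1.10 ± 0.05. TK2, the mitochondrial thymidine kinase, rose by 0.64 ± 0.05. So for both enzyme activities, ribonucleotide reductase and thymidine kinase, the S phase gene (RRM2, TK1) fell while another gene (RRM2B, TK2) rose.

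The promoters of these genes were searched for 3 short motifs in a window from 250 bases before to 50 after the RefSeq start (GRCh38.p14). An E2F word, here TTTCCCGC, TTTCGCGC, TTTGCCGC or TTTGGCGC on either strand, was found in 22 of the 44 promoters that the table held (50.0%, the promoter of UHRF1 included), against 3.33% of all 27305 promoters in it and 4.82% of the 13125 of genes tested. A CCAAT box was in 54.5% against 35.7% of all promoters and 35.9% of those of genes tested, and a CHR word (TTTGAA or TTCGAA), of the kind found in G2 and M phase genes, in 6.82% against 16.6% and 12.02%. The E2F word did not separate the deeper falls from the others: 14 of 28 promoters of genes with a log2 fold change under -1 held it, as did 7 of 15 among the remaining genes, and the promoter of UHRF1 made up the rest. The stretches that follow are shown because they hold the words in a gene that fell strongly with 4 overlapping matches (MCM6, chr2:135876514-135876603), in a GINS gene (GINS2, chr16:85688955-85689014), in E2F2 itself (chr1:23531234-23531293), and in the 2 genes that did not fall (PCNA, chr20:5126623-5126702, and ORC3, chr6:87590075-87590134); RRM2 (chr2:10122609-10122688) is shown as a strongly lowered gene with none. They read 5′ to 3′ on the gene's strand, minus for MCM6, GINS2, E2F2 and PCNA and plus for ORC3 and RRM2. Capitals mark E2F words, and in RRM2 the 3 CCAAT boxes.
MCM6: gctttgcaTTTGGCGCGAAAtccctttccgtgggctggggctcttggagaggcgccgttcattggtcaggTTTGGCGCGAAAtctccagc
GINS2: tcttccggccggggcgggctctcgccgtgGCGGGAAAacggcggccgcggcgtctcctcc
E2F2: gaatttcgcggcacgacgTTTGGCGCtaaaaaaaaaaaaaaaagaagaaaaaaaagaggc
PCNA: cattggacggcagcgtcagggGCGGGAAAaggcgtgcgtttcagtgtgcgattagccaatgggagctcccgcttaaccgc
ORC3: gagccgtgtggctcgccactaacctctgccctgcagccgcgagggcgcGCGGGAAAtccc
RRM2: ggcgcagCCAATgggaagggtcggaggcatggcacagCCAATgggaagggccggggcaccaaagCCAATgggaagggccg
A match is a description of letters in this window and was not tested as a site. PCNA and ORC3, which did not fall, held a TTTCCCGC word on the opposite strand, as GINS2 did, which fell 5.72-fold.

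Part of this machinery was higher in senescent cells with siNTRK2. Against siCtrl in senescent cells, 13 of the 48 genes (27.1%) rose with siNTRK2, against 11.1% of all genes tested, and 3 (6.25%) fell, against 10.0%. The median log2 fold change was 0.20 over the 48 genes and 0.00 over all genes tested. The rises were small beside the falls with senescence, at most 0.79 on the log2 scale, and no gene rose by more than 1. Among the genes that fell with senescence, a siNTRK2 library reached the lowest proliferating one in ORC2 and RFC1 only. These genes were picked as lower in senescent cells, and the share over all genes that fell was not counted. The 32 genes that did not pass the test ran from -1.23 for E2F8, where counts were few, and -0.21 for DUT to 0.60 for CDC7.

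**Figure D3:**
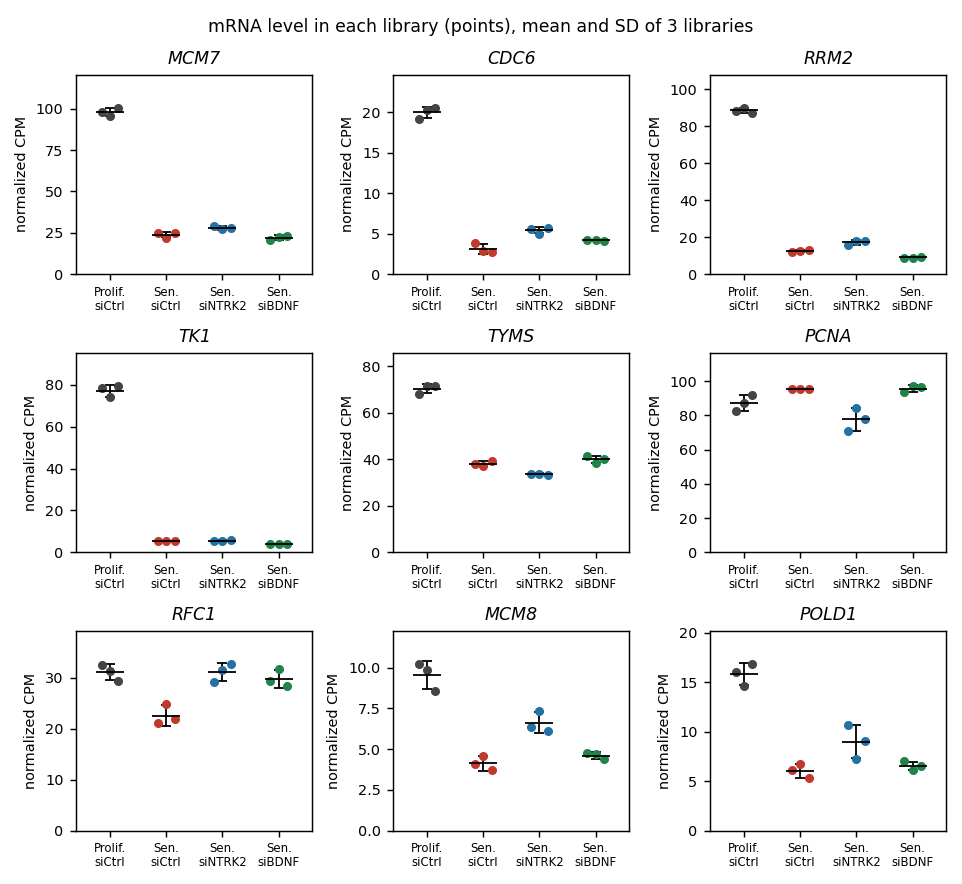
Normalized CPM of 9 genes in each library (points), with the mean (bar) and SD of 3 libraries per group; every axis starts at 0. RRM2 is higher with siNTRK2 and lower with siBDNF than with siCtrl in senescent cells, TK1 is lower with siBDNF, PCNA and TYMS are lower with siNTRK2, and RFC1 is higher with both.

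The rise was largest in CDC6, at 5.61, 5.0 and 5.64 CPM with siNTRK2 against 3.85, 2.81 and 2.75 CPM with siCtrl (log2 fold change 0.79 ± 0.12, SE, n = 3 per group, adjusted p = 1.90e-05). The groups did not overlap, and CDC6 kept its call in each alternative tried. MCM8 and MCM10 rose as well. MCM8 stood at 6.38, 7.36 and 6.11 CPM with siNTRK2 (1.6-fold, adjusted p = 8.33e-05). MCM10 stood at 1.65, 1.01 and 1.1 CPM with siNTRK2 (1.67-fold, adjusted p = 0.0199), a call lost without siNTRK2 replicate 1 (log2 fold change 0.48) or senescent siCtrl replicate 1 (0.52), or when only the 2 groups were fitted (0.74). POLD1, the catalytic subunit of polymerase delta, had 10.6, 7.28 and 9.03 CPM with siNTRK2 against 6.09, 6.74 and 5.31 CPM with siCtrl (1.49-fold, adjusted p = 7.93e-04). A gene on the same strand, ENSG00000142539, shares 8.63% of the exonic bases of POLD1. Its log2 fold change with siNTRK2 was 0.85. Its counts were 105, 41 and 95 with siNTRK2 and 62, 29 and 46 with siCtrl, so the groups overlapped.

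The other genes that rose with siNTRK2 came from most roles. In the helicase these were MCM3 (log2 fold change 0.31), MCM7 (0.24) and CDC45 (0.54), and in licensing and firing ORC2 (0.42) and DBF4 (0.54). RFC1 (0.46), RFC4 (0.39) and RFC5 (0.38) were 3 of the 5 clamp loader genes, where 11.1% of all genes tested rose. Among the nucleotide genes RRM2 rose, from 11.8, 12.4 and 13.3 CPM with siCtrl to 15.8, 17.9 and 18 CPM with siNTRK2 (1.38-fold, adjusted p = 1.70e-05). The calls of CDC45, DBF4 and RFC4 each depended on single libraries. CDC45 lost it without senescent siCtrl replicate 3 or siNTRK2 replicate 1, DBF4 without siCtrl replicate 1 (log2 fold change 0.44), and RFC4 without siCtrl replicate 1 or 3 or siNTRK2 replicate 3 (0.26 without the last). CDC45 and RFC4 also lost it when only the 2 groups were fitted.

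PCNA, TYMS and E2F2 went the other way. PCNA was at 70.9, 84.4 and 77.6 CPM with siNTRK2 against 95.1, 95.4 and 95.3 CPM with siCtrl, so each siNTRK2 library was lower (log2 fold change -0.30 ± 0.05, SE, adjusted p = 3.14e-04). TYMS was at 33.7, 33.9 and 33.5 CPM against 37.9, 37.2 and 39.2 CPM (-0.18 ± 0.05, adjusted p = 0.0156), a call lost without siCtrl replicate 3 (-0.15) or with no filter on low counts (-0.16). E2F2 had counts of 3, 1 and 4 with siNTRK2, at or near the limit of 3 counts per library, against 13, 10 and 6 with siCtrl. The ratio of the summed counts was 0.287 (95% exact interval 0.113 to 0.644, counting error only). It was the sole gene of the 48 that passed the study's size threshold, against 0.567% of all genes in that direction, and its call was lost without siCtrl replicate 1 or 2, without siNTRK2 replicate 1 or 2, or with no filter on low counts. TK1, the gene that fell most with senescence, was at 5.29, 5.26 and 6.05 CPM with siNTRK2 and overlapped siCtrl (0.05 ± 0.08, adjusted p = 0.718).

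Markers of cycling and of arrest moved in the same libraries. With siNTRK2, MKI67 was at 4.35, 3.85 and 4.36 CPM against 1.64, 1.38 and 0.814 CPM with siCtrl, 3.28-fold higher, TOP2A was 2.15-fold and CCNB1, the mitotic cyclin B1, 1.46-fold higher. LMNB1, a nuclear lamina gene lost in senescence, was 1.54-fold higher, and CDKN1A fell 1.42-fold. All 5 stayed on the senescent side of the proliferating libraries. The fall of CDKN1A with siNTRK2 differs from the study's RT-qPCR, in which p21 mRNA was reported as unchanged by either silencing. With siBDNF, MKI67 was 1.88-fold higher (adjusted p = 5.53e-04), and the log2 fold changes of TOP2A (0.12), CCNB1 (-0.01), LMNB1 (-0.18) and CDKN1A (-0.04) did not pass the test. The part of a change in cycling cells in the values for the replication genes was not tested.

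With siBDNF the calls among the replication genes were fewer and went both ways. Of the 48 genes, 7 (14.6%) rose, against 10.3% of all genes tested, and 3 (6.25%) fell, against 10.2%. The median log2 fold change was 0.04 over the 48 genes and 0.00 over all genes tested. Without senescent siCtrl replicate 3 the count of calls was 5 in place of 10. The shares were near those of all genes. The 38 genes that did not pass the test ran from -0.79 for E2F8 and -0.37 for GINS2 to 0.63 for CDC7 and 0.89 for E2F2, where E2F2 and E2F8 had few counts.

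RRM2 and TK1, 2 of the 5 nucleotide supply genes, fell with siBDNF below their already low senescent levels, where 10.2% of all genes tested fell. The other 3 nucleotide supply genes did not pass the test. RRM2 was at 8.88, 8.82 and 9.44 CPM with siBDNF against 11.8, 12.4 and 13.3 CPM with siCtrl (log2 fold change -0.46 ± 0.07, SE, n = 3 per group, adjusted p = 3.99e-05). TK1 was at 4.03, 4.11 and 3.8 CPM against 5.36, 5.19 and 5.47 CPM (-0.43 ± 0.08, adjusted p = 6.69e-04). In both genes every siBDNF library lay below every siCtrl library, and both kept the call in each alternative tried. PRIM2 fell less (-0.24 ± 0.07, adjusted p = 0.0135), with the call lost without siCtrl replicate 1 or 2, without siBDNF replicate 1 or 3, or with library totals in place of TMM factors (-0.19).

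The 7 genes that rose with siBDNF held 3 of the 9 licensing and firing genes, against 10.3% of all genes tested, and the large clamp loader subunit. RFC1 stood at 29.3, 31.8 and 28.3 CPM with siBDNF against 21, 24.8 and 21.9 CPM with siCtrl (1.32-fold, adjusted p = 1.83e-04), where proliferating cells had 32.5, 31.3 and 29.4 CPM. Of the siBDNF libraries, replicate 2 lay within the proliferating range and the others just below it. DBF4 was at 3.54, 3.72 and 4.53 CPM against 2.37, 3.41 and 2.51 CPM (0.52 ± 0.14, adjusted p = 0.00908), and CDC6 at 4.27, 4.2 and 4.07 CPM (0.41 ± 0.12, adjusted p = 0.014). GINS4 (0.40), ORC2 (0.32), CHAF1A (0.25) and MCM4 (0.20) made up the rest. Of these 7, RFC1 and GINS4 kept the call in each alternative tried, and the other 5 lost it without senescent siCtrl replicate 3, each also without at least 1 other library, and CHAF1A also with no filter on low counts.

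**Figure D4:**
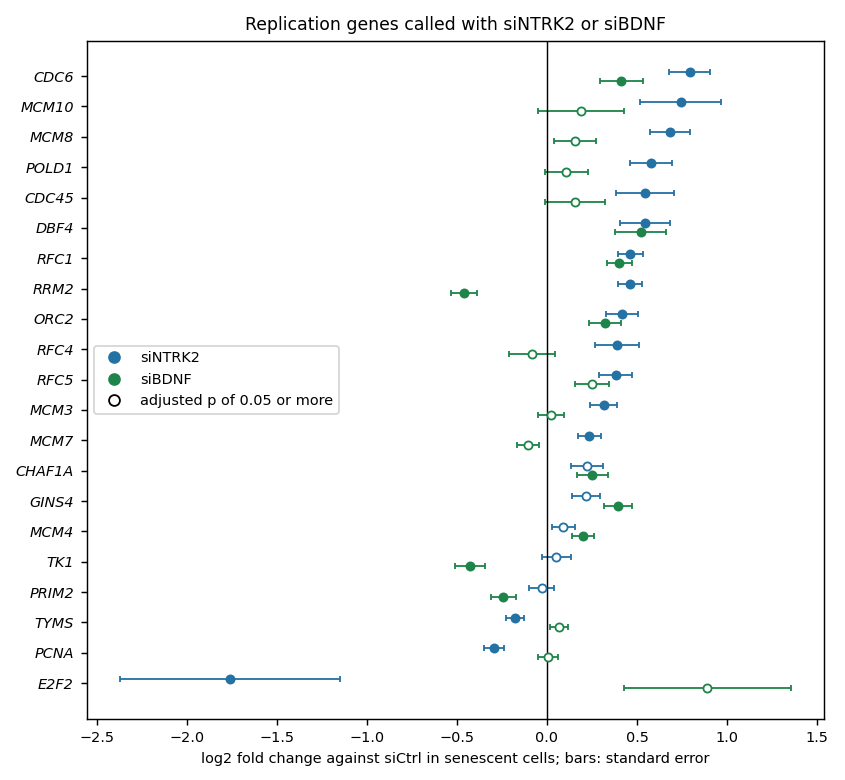
Log2 fold change against siCtrl in senescent cells, with the standard error from the edgeR fit, for the 21 genes called with siNTRK2 (blue), siBDNF (green) or both; open circles have an adjusted p of 0.05 or more. RRM2 has filled points on opposite sides of 0, at 0.46 and -0.46, while CDC6, DBF4, RFC1 and ORC2 have both on the right.

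Both siRNA comparisons use the same 3 siCtrl libraries, so their values are set side by side and not tested against each other. CDC6, DBF4, ORC2 and RFC1 rose in both, 4 of 48 genes (8.33%) against 4.77% of all genes. No replication gene fell in both by the edgeR test, against 4.28% of all genes. At an unadjusted p under 0.05 there was 1 (DUT), and by DESeq2 0. The values were 0.79 with siNTRK2 and 0.41 with siBDNF for CDC6, 0.54 and 0.52 for DBF4, 0.42 and 0.32 for ORC2, and 0.46 and 0.40 for RFC1, all on the log2 scale. RRM2 was called in opposite directions, 1 of 48 genes (2.08%) against 0.85% of all genes.

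The siCtrl libraries share the fit but are not the baseline of the direct comparison of siNTRK2 with siBDNF. In it 15 of the 48 genes (31.2%) were higher with siNTRK2, against 8.84% of all genes tested, and 3 (6.25%) were lower, against 7.86%. The median log2 difference was 0.13 over the 48 genes and 0.00 over all genes. RRM2 differed most among the genes with ample counts: 15.8, 17.9 and 18 CPM with siNTRK2 and 8.88, 8.82 and 9.44 CPM with siBDNF, 1.9-fold apart (log2 difference 0.92 ± 0.07, SE, adjusted p = 5.31e-10). In the same enzyme RRM1 differed by 0.22 ± 0.05 (adjusted p = 0.00315), and in the salvage route TK1 by 0.48 ± 0.08 (adjusted p = 2.22e-04). TYMS went the other way, at 33.7, 33.9 and 33.5 CPM with siNTRK2 and 41.3, 38.5 and 40.1 CPM with siBDNF (-0.24 ± 0.05, adjusted p = 0.00147). Of the 5 nucleotide supply genes, 4 differed between the siRNAs, 3 higher and 1 lower with siNTRK2, against 3595 of all 21518 genes tested. DUT did not pass the test.

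Elsewhere in the machinery, MCM8 was at 6.38, 7.36 and 6.11 CPM with siNTRK2 and 4.73, 4.68 and 4.37 CPM with siBDNF (0.53 ± 0.11, adjusted p = 0.00149). ORC1 had 1.78, 1.25 and 1.56 CPM and 0.611, 1.11 and 1.09 CPM (0.65 ± 0.22, adjusted p = 0.0409), and GINS2 had 2.38, 2.36 and 2.33 CPM and 1.8, 1.63 and 1.66 CPM (0.49 ± 0.14, adjusted p = 0.0168). The siNTRK2 libraries were the higher ones for all 3 genes, without overlap. In the MCM ring the difference was 0.34 for MCM7, 0.29 for MCM3 and 0.27 for MCM5. CDC6, POLA1, PRIM2, POLD1, RFC4 and CHAF1B made up the rest, at 0.21 to 0.47. PCNA was lower with siNTRK2 (-0.30 ± 0.05, adjusted p = 2.93e-04). E2F2 was too, with counts of 3, 1 and 4 against 11, 14 and 28, a ratio of 0.155 (95% exact interval 0.0635 to 0.327), the 1 gene past the study's size threshold, against 0.827% of all genes in that direction. Of the 18 genes, MCM7, MCM8, RRM1, RRM2, TK1, PCNA, TYMS and E2F2 kept the call in each alternative in which they were tested. E2F2, with few counts, was tested in 12 alternatives and the rest of these in 13. The other 10 each lost it without at least 1 library: ORC1 without siNTRK2 replicate 1 or 3 or siBDNF replicate 1 or 3, GINS2 without siBDNF replicate 2 or 3, and POLD1 without siNTRK2 replicate 1. With library totals in place of TMM factors ORC1, CHAF1B, POLA1 and PRIM2 lost it, when only the 2 groups were fitted ORC1, GINS2 and POLA1 did, with the replicate block ORC1 did, and with no filter on low counts PRIM2 did.

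In the list of 64 other pathway genes, 19 (29.7%) rose and 3 (4.69%) fell with siNTRK2, against 11.1% and 10.0% of all genes tested. With siBDNF 13 (20.3%) rose and 5 (7.81%) fell, against 10.3% and 10.2%. CLSPN (1.11) and TOP2A (1.11) rose most with siNTRK2, and TK2 (-0.35) and POLE4 (-0.35), an accessory gene of polymerase epsilon, fell. With siBDNF, the initiation gene TICRR, which helps load CDC45, rose by 0.43 and E2F7 by 0.55, while ASF1B, a histone chaperone, fell by 0.54 ± 0.17 and RNASEH2A, the catalytic subunit of RNase H2, by 0.45 ± 0.11. Directly compared, 8 of the 64 (12.5%) were higher with siNTRK2 and 5 (7.81%) lower, shares near the 8.84% and 7.86% of all genes. Among the higher ones the log2 difference was 0.98 for TOP2A, 0.91 for ASF1B, 0.78 for CCNA2 and 0.65 for RNASEH2A. With siBDNF against siCtrl, TOP2A (0.12) and CCNA2 (-0.23) did not pass the test.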

How the data were processed

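RNA was sequenced as paired-end, stranded poly(A) libraries. Per the labels and the study's methods, the authors demultiplexed with bcl2fastq 2.20.0.422, trimmed with Cutadapt, aligned with STAR 2.4.0j to hg19 and counted with featureCounts 1.6.4. The strand setting and the handling of overlapping genes are not given in the sources used here. The deposited values are raw counts per gene, 1 table per library. Rows were joined by Ensembl identifier, and symbols were given to 55538 of 57773. The genes and lists were chosen with earlier results of these data known.

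From the counts, edgeR 4.0.16 (R 4.3.3) fitted all 12 libraries with TMM factors after filterByExpr (minimum count 10), and its quasi-likelihood test gave p-values for 21518 genes, adjusted together. Errors of log2 fold changes are standard errors of that fit. DESeq2 1.42.0, other scalings and filters, 2-group fits, a replicate block and leaving out each library were alternatives. The fit was tested on simulated data for the comparison of senescent with proliferating siCtrl cells only. That test does not cover the silencing comparisons. Count intervals are exact at 95%; intervals and the limit of 3 counts cover counting error only. Values per library are given for the genes with the largest and smallest change with senescence in each role, the 5 largest called changes in each silencing comparison, and genes that went against most others. Exon lengths and hg19 gene positions come from GENCODE v44 mapped to that build, promoters from RefSeq (GRCh38.p14), where 44 of the 49 names had an entry.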

Additional observations from a re-analysis of the deposited data

Results flagged for a closer look

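RRM2 was the 1 replication gene whose called changes with siNTRK2 (0.46 ± 0.07 on the log2 scale, SE) and with siBDNF (-0.46 ± 0.07) against the shared siCtrl libraries had opposite signs, 2.08% of the 48 against 0.85% of all genes tested. The siCtrl libraries share the fit but are not the baseline of the direct comparison. There the difference was 0.92 ± 0.07 (SE, edgeR adjusted p = 5.31e-10), with all 3 siNTRK2 libraries higher than all 3 siBDNF libraries. The difference ran from 0.886 to 0.986 over 13 alternatives. Its cause was not tested.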

How the results depend on the processing

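All 46 falls with senescence kept their call in each alternative in which the gene was tested, and so did 10 of the 16 calls with siNTRK2, 4 of 10 with siBDNF and 8 of 18 between the siRNAs. With the study's size threshold the counts of called genes were 30 with senescence, 1 with siNTRK2, 0 with siBDNF and 1 between the siRNAs, since that threshold asks for a log2 fold change over 1. Without single libraries the counts ran from 46 to 47 with senescence, 13 to 20 with siNTRK2, 5 to 9 with siBDNF and 12 to 15 between the siRNAs. The median log2 fold change with senescence was -1.52 with DESeq2 size factors, -1.51 with library totals alone and -1.49 with at least 10 counts in every library, where 46 of the 48 genes were left. With library totals the medians were 0.22 for siNTRK2, 0.10 for siBDNF and 0.096 between the siRNAs. Without single libraries the medians ran from -1.58 to -1.51 with senescence, 0.18 to 0.21 with siNTRK2, -0.0002 to 0.0535 with siBDNF and 0.116 to 0.16 between the siRNAs; the negative one, -0.0002, was without siBDNF replicate 2. Single values that changed sign were not called in either fit. With siBDNF, MCM10 ran from -0.0343 (without siCtrl replicate 1) to 0.335 and PCNA from -0.0013 (without siBDNF replicate 2; -0.0007 without replicate 3) to 0.0234 without single libraries. With siNTRK2, TK1 ran from -0.0193 (without siNTRK2 replicate 3) to 0.0923. E2F8 with siBDNF ran from -1.3281 to 0.2702, positive only without siCtrl replicate 3, and DUT between the siRNAs from -0.0769 to 0.0679, positive without siNTRK2 replicate 2 and, at 0.0032, without siBDNF replicate 3. The cause was not tested.

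Same-numbered libraries did not deviate together (mean correlation 0.00758 over 18 pairs, from -0.0614 to 0.0739), so the numbers are not read as pairs. With the replicate block, 48, 17, 11 and 17 genes were called in the 4 comparisons in the order above. E2F2 and E2F8 had under 10 counts in some libraries, and depth limits their ratios.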

Other observations

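Several replication genes share exonic bases with a neighbour, whose values are given here because reads could be shared. ENOSF1, opposite to TYMS, fell by 0.69 ± 0.06 on the log2 scale with senescence, and its values with siNTRK2 (-0.14) and siBDNF (-0.02) did not pass the test. TYMSOS, an antisense transcript over 7.97% of the exonic bases of TYMS, was lower with siNTRK2 than with siBDNF, as TYMS was, by -0.39. DUT-AS1 fell by 0.54 ± 0.16 with siNTRK2 and by 0.50 ± 0.16 with siBDNF, where the values of DUT (-0.21 and -0.19) did not pass the test. AP4M1, opposite to MCM7, fell by 0.32 ± 0.06 with senescence and had -0.00 with siNTRK2, which did not pass the test, whereas MCM7 rose by 0.24. NACA, on the same strand as PRIM1, shares 4.20% of the exonic bases of PRIM1. Its counts in senescent siCtrl cells were 23759, 23764 and 25234, against 45, 52 and 36 for PRIM1. The list of 64 held 19 other initiation and fork genes, of which 9 rose with siNTRK2, against 11.1% of all genes tested. Among the 9 were the ORC subunit ORC5 (0.26), CDK2 (0.29), the S phase kinase, and TOPBP1 (0.34), which activates the ATR checkpoint kinase.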
